A study of Mus musculus with 8 samples.

Results

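The cytosolic ribosomal protein genes encode the proteins that, together with ribosomal RNA, build the large and the small subunit of the ribosome outside mitochondria. They were taken here as the probe sets that the array's annotation pairs with a single gene symbol, where that whole symbol is Rpl or Rps followed by a number and at most 1 of the letters a, l, x or y, together with Rplp0, Rplp1, Rplp2 and Rpsa, and without pseudogenes. This gave 58 genes out of 19938 measured genes, 37 of the large and 21 of the small subunit. They were covered by 213 of the 35556 probe sets, and each gene was represented by its brightest probe set, judged by the mean of all 8 arrays.

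The series asked how a lack of tumour necrosis factor (TNF), an inflammatory cytokine, changes gene expression in the brain. Brains of adult males, 2 to 4 months old, were lysed and their RNA was hybridised to Mouse Gene 1.0 ST arrays of Affymetrix. The labels give 4 arrays as TNF-/- and 4 as TNF+/+, each a biological replicate. The TNF+/+ mice are labelled C57BL/6. The labels used here give no strain background for the TNF-/- mice, no allele and no deleted part of the gene, and the groups carry no other agent or treatment.

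Most messenger RNAs of ribosomal proteins start with an unbroken stretch of C and T bases, the terminal oligopyrimidine (TOP) motif. Through it the kinase complex mTORC1 and the protein Larp1 set how much of this RNA is translated, and the cell keeps the many proteins near equal amounts because they are used side by side. In the brain the family is transcribed in neurons and glia alike, and mutations in several members cause Diamond-Blackfan anaemia, a failure of red cell production.

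The promoters of 6 members are shown because the genes recur below: Rpl28, Rpl5, Rpl24 and Rps13 had the lowest p-values among members with a promoter entry, and Rps6 and Rps9 gave different values from different probe sets. Each line gives 30 bases of the RefSeq sequence of GRCm38.p6, the 20 bases before the annotated transcription start and the 10 that begin with it, 5′ to 3′ on the gene's strand, with the longest unbroken run of C and T in capitals.
Rpl28, chr7:4792945-4792974, plus strand: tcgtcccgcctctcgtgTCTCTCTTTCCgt
Rpl5, chr5:107900508-107900537, plus strand: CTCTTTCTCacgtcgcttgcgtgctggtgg
Rps6, chr4:86857358-86857387, minus strand: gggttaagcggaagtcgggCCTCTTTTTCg
Rps9, chr7:3704021-3704050, plus strand: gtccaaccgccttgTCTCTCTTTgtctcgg
Rpl24, chr16:55966255-55966284, plus strand: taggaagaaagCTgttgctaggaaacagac
Rps13, chr7:116334181-116334210, minus strand: cgcgcgagagcaaacgTCggtgagtggcgt
Rpl28, Rpl5, Rps6 and Rps9 have runs of 11, 9, 10 and 9 pyrimidines in this window, and Rpl24 and Rps13 have runs of only 2. Of the 58 members 47 matched the promoter table, with 56 promoters. A run of at least 8 C or T on the gene's strand stood in 20 of these 56 windows (35.7%), against 12.6% of the windows of all 32851 promoters. The letters CTTT on the gene's strand stood in 16 (28.6%), against 12.3% of all promoters, and 14 of these 16 windows also held such a run. Over the 300 bases from 250 before to 50 after the start, the letters CCGGAAG, the core bound by ETS factors, stood on either strand in 19 promoters (33.9%), against 8.86% of all. The letters AAGATGGC, the core of the YY1 motif, stood in 2 (3.57%), against 2.75%. These are letter matches in annotated windows, not measured sites.

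All signals below are the authors' log2 values, and every difference is the TNF-/- minus the TNF+/+ label. The Tnf signal itself went against the labels, so the groups are named by label only: it was 5.92 ± 0.22 in the arrays labelled TNF-/- and 4.53 ± 0.29 in those labelled TNF+/+ (SD, n = 4 each), a difference of 1.39 ± 0.16 (SE; limma, adjusted p = 0.0278). Whether its probe set lies within the deleted part is not stated. The array medians lay between 5.08 and 5.11 in arrays labelled TNF-/- and between 5.03 and 5.10 in those labelled TNF+/+. TNF+/+ arrays 3 and 4 stood apart on the first principal component of all probe sets, at 22.05 and 37.22, while the other 6 arrays scored -4.29 or lower, and TNF+/+ array 1 had a mean of 7.79 over the cerebellum marker list against 6.37 to 6.53 in the others. The neuron list averaged 10.69 to 10.72 in TNF-/- arrays and 10.65 to 10.71 in TNF+/+ arrays, and the blood cell list 3.92 to 4.07 in TNF-/- arrays and 4.06 to 4.23 in TNF+/+ arrays. In bulk tissue, fewer cells of a type and less RNA per cell cannot be told apart.

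No member of the family passed the test between the labels. Most members nevertheless had a slightly lower mean in the arrays labelled TNF-/-: 41 of 58 did (70.7%), against 52.2% of all 19938 genes and 37.8% of the 1994 brightest genes. The differences were small, with a median of -0.077 over the family against -0.0061 over all genes and 0.033 over the brightest 1994, and they ran from -0.28 for Rplp0 to 0.13 for Rpl23a. In size 29 of the 58 were under 0.1 and 7 were over 0.2.

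With limma and Benjamini-Hochberg adjustment over all probe sets, 0 members were called higher and 0 lower at an adjusted p under 0.05, where 0.0502% of all genes were called, and the lowest adjusted p among members was 0.401. SAM, the permutation method named in the series' design text, also called 0 members, against 0.11% of all genes. At an unadjusted limma p under 0.05, 5 members were lower (8.62%), against 4.28% of all genes, and 0 were higher, against 7.37% of all genes. The values of the groups did not overlap in 2 members, Rps13 and Rpl30, both lower, against 3.5% of all genes, and in 0 members on the higher side, against 4.16%. The non-overlapping share on the lower side, 3.45% of members, is thus near that of all genes.

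**Figure D1:**
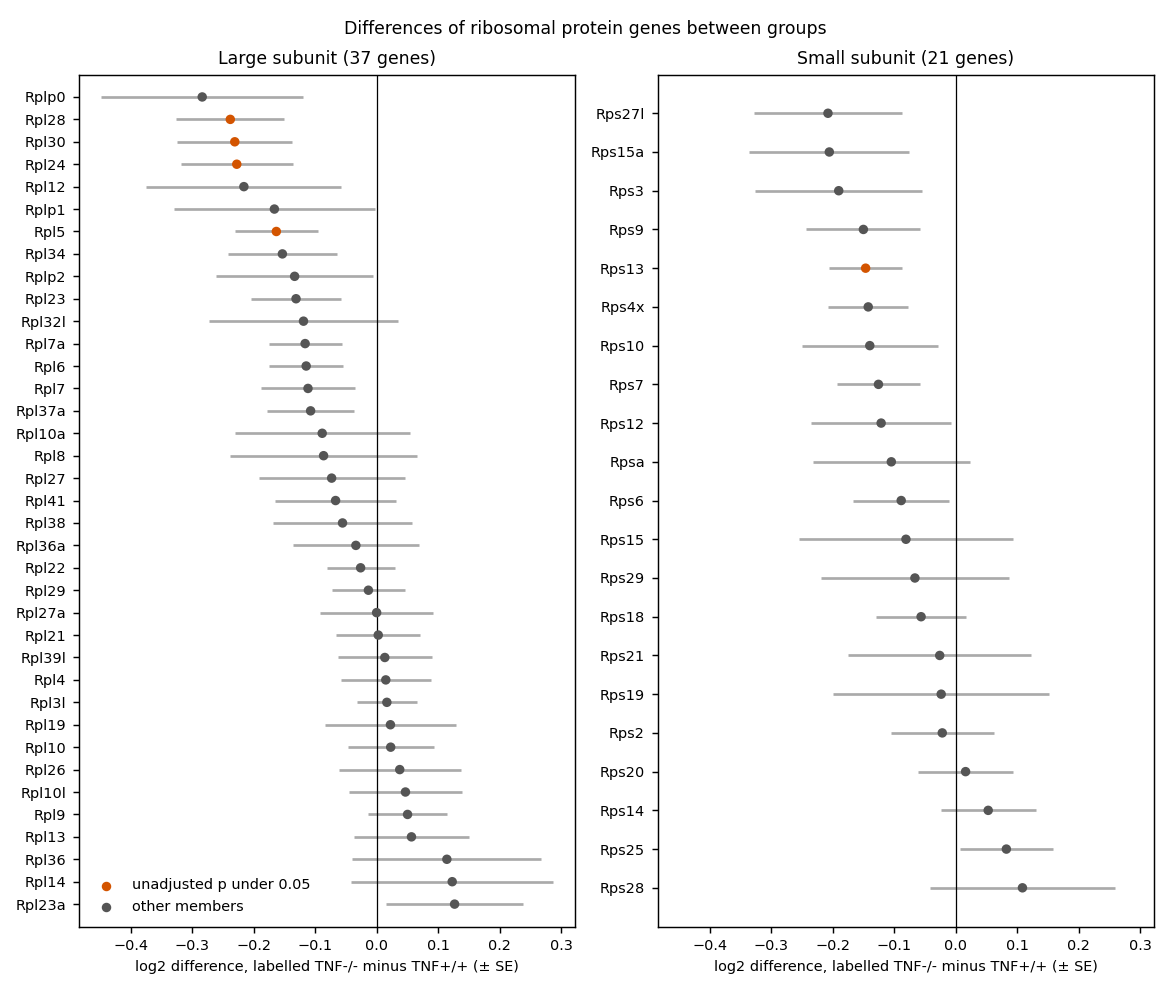
Difference in log2 signal (TNF-/- minus TNF+/+ label, x axis) of each of the 37 large subunit genes (left) and 21 small subunit genes (right), with bars of 1 standard error from limma and orange points for an unadjusted p under 0.05. Most points lie left of 0, from -0.28 for Rplp0 to 0.13 for Rpl23a, and the 5 orange points are all on the lower side.

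The lower side of the family was not kept without TNF+/+ arrays 3 and 4, which leaves TNF+/+ array 2 averaged with TNF+/+ array 1, the lowest of all. Then 26 of 58 members were lower in TNF-/- arrays, against 51.2% of all probe sets, 1 of them at an unadjusted p under 0.05, against 5.17%, and the median difference was 0.035 in the large and -0.009 in the small subunit. Without TNF+/+ array 1, 49 of 58 were lower, against 55.6% of all probe sets, and 10 of them at an unadjusted p under 0.05, against 5.14%. Without TNF+/+ array 4 alone 33 were lower, against 54.6%, and 0 at an unadjusted p under 0.05, against 5.00%. Among the TNF-/- arrays, leaving out array 1 made that last count 6, against 4.49% of all probe sets. Leaving out array 2, 3 or 4 made it 3, 2 or 2, against 3.73%, 3.70% and 3.69%. Without TNF-/- array 3, 1 member was higher at that p, against 4.05% of all probe sets.

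The per-array view shows the same arrays at the extremes. TNF+/+ array 4 held the highest signal of 23 members (39.7%), against 17.2% of all genes, and the lowest of 0. TNF+/+ array 3 held the highest of another 15 (25.9%), against 15.3% of all genes. At the other end, TNF+/+ array 1 was the lowest for 20 members (34.5%) and TNF-/- array 4 for 15 (25.9%), each against 14.7% of all genes. The SD was larger over TNF+/+ than over TNF-/- arrays in 41 members (70.7%), against 56.8% of all genes. The median SD of a member was 0.10 over TNF-/- and 0.15 over TNF+/+ arrays, while over all genes these medians were 0.09 and 0.10.

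**Figure D2:**
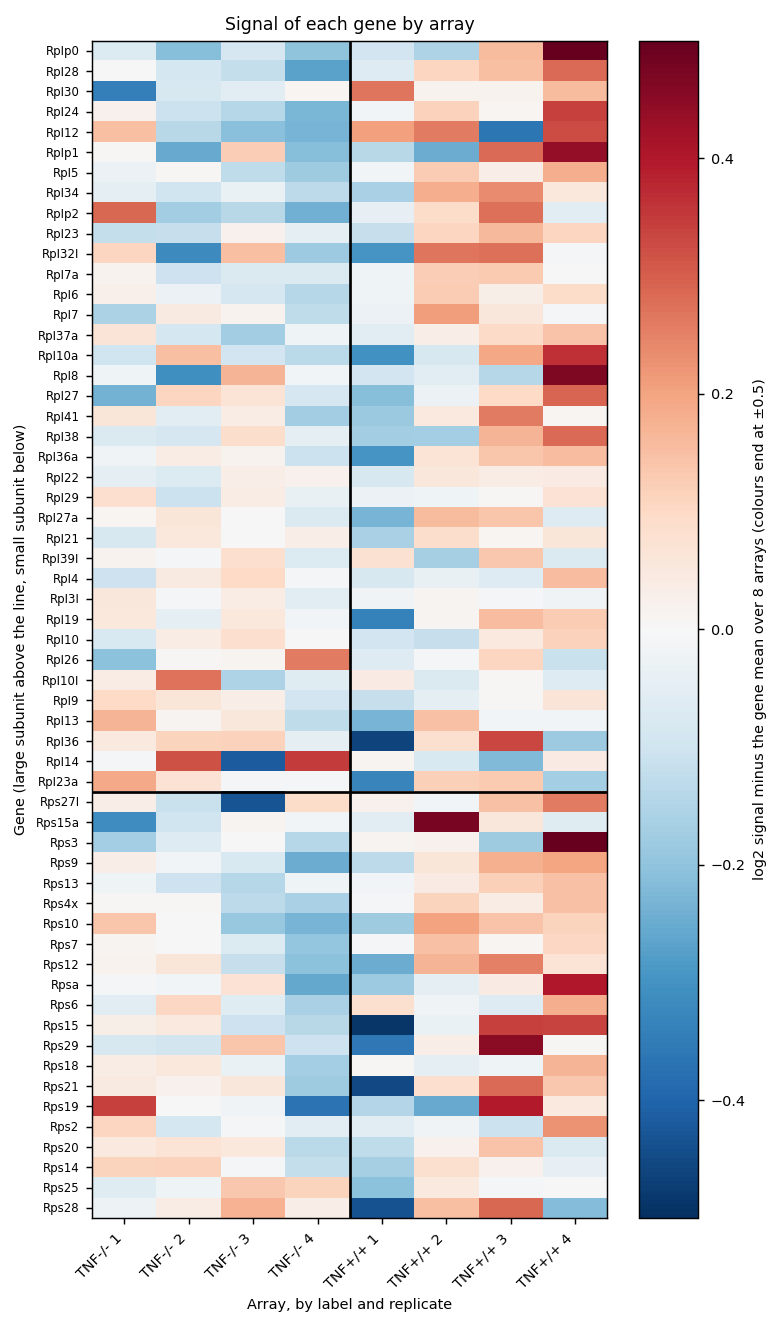
Log2 signal of the 58 genes (lines, grouped by subunit) in the 8 arrays (columns, TNF-/- left of TNF+/+), each gene centred on its mean over the 8 arrays, with colours ending at 0.5 in either direction. TNF+/+ arrays 3 and 4 hold the highest signal of 38 genes, and TNF+/+ array 1 the lowest of 20.

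Both subunits followed the arrays alike. The mean signal of the 37 large subunit genes was 8.36, 8.33, 8.35 and 8.29 in TNF-/- arrays 1 to 4, and 8.25, 8.40, 8.45 and 8.48 in TNF+/+ arrays 1 to 4. For the 21 small subunit genes it was 8.60, 8.59, 8.56 and 8.46 in TNF-/- arrays, and 8.44, 8.65, 8.71 and 8.72 in TNF+/+ arrays. In both subunits TNF+/+ array 1 was the lowest of all and TNF+/+ arrays 2 to 4 were above every TNF-/- array.

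The group difference of these means was -0.063 for the large and -0.078 for the small subunit. The median difference per gene was -0.067 and -0.089, with 24 of 37 large subunit genes (64.9%) and 17 of 21 small subunit genes (81.0%) on the lower side. The large minus the small subunit mean was -0.25, -0.25, -0.21 and -0.18 in TNF-/- arrays, and -0.19, -0.25, -0.27 and -0.24 in TNF+/+ arrays. That balance was -0.22 ± 0.04 in TNF-/- and -0.24 ± 0.03 in TNF+/+ arrays (SD, n = 4 each), a difference of 0.015, smaller than the spread within either label. Leaving out 1 TNF-/- array gave 0.024 (array 1), 0.026 (array 2), 0.011 (array 3) or 0.00029 (array 4). Leaving out 1 TNF+/+ array gave 0.032 (array 1), 0.010 (array 2), 0.0057 (array 3) or 0.014 (array 4), and leaving out both TNF+/+ arrays 3 and 4 gave -0.0016. With the mean of all probe sets of a gene it was 0.027. Without the paralogs Rpl3l, Rpl10l, Rpl39l and Rps27l, and with Rpl32l kept, it was 0.0011. No test was run on these means, since they are scores over a chosen list.

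**Figure D3:**
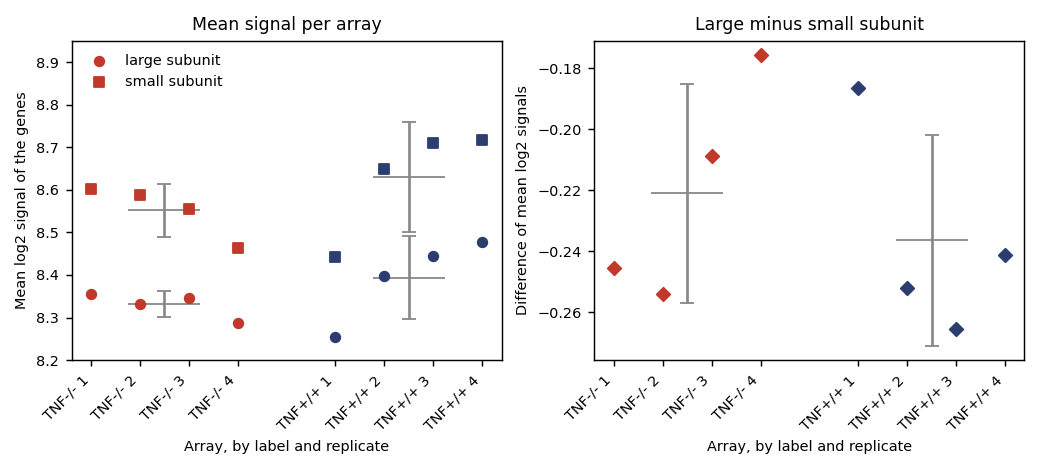
Mean log2 signal of the large (circles) and small (squares) subunit genes in each array on the left, and the large minus the small subunit mean on the right, with TNF-/- arrays in red and TNF+/+ arrays in blue and grey bars for the mean ± SD of each label (n = 4). TNF+/+ array 1 is lowest in both subunits, and the balance between the subunits overlaps between the labels.

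The stalk of the large subunit, which recruits the elongation factors, is built on Rplp0 with the acidic proteins Rplp1 and Rplp2. Rplp0, often used as a reference gene in quantitative PCR, had log2 signals of 9.99, 9.84, 9.97 and 9.85 in TNF-/- arrays, and 9.96, 9.90, 10.21 and 10.71 in TNF+/+ arrays. Its difference of -0.28 ± 0.16 (SE; limma, adjusted p = 0.564) was the largest of the family in size, and TNF+/+ arrays 1 and 2 lay within the TNF-/- range. Without TNF+/+ arrays 3 and 4 it was -0.018. Its other probe set gave -0.29 (limma, adjusted p = 0.472). There the groups did not overlap, by a narrow margin between TNF-/- array 3 (9.88) and TNF+/+ array 2 (9.90).

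Rplp1 was at 10.29, 10.03, 10.41 and 10.07 in TNF-/- arrays, and at 10.15, 10.04, 10.57 and 10.72 in TNF+/+ arrays. The same TNF+/+ arrays 3 and 4 were the highest, and the difference of -0.17 ± 0.16 (adjusted p = 0.729) was 0.11 without them. Rplp2 had a dim signal, 5.24, 4.78, 4.81 and 4.71 in TNF-/- arrays and 4.91, 5.04, 5.23 and 4.90 in TNF+/+ arrays, with overlapping groups and a difference of -0.13 ± 0.13.

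Among the other large subunit proteins, 4 had an unadjusted p under 0.05. Rpl28, a protein found in ribosomes of animals but not of bacteria, was at 10.04, 9.96, 9.92 and 9.77 in TNF-/- arrays, and at 9.98, 10.15, 10.19 and 10.33 in TNF+/+ arrays. TNF+/+ arrays 2 to 4 lay above every TNF-/- array and TNF+/+ array 1 lay within their range. The difference was -0.24 ± 0.09 (unadjusted p = 0.025, adjusted p = 0.401 by limma), or 0.848-fold. Its 4 other probe sets gave -0.26 to -0.24 (limma, adjusted p between 0.348 and 0.378), and the groups did not overlap in the probe set at -0.253.

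Rpl24, which reaches from the large subunit to the small one, was at 10.06, 9.93, 9.89 and 9.81 in TNF-/- arrays, and at 10.02, 10.15, 10.05 and 10.38 in TNF+/+ arrays. TNF+/+ array 4 was the highest, and TNF-/- array 1 lay above TNF+/+ arrays 1 and 3. The difference was -0.23 ± 0.09 (limma, adjusted p = 0.432).

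Rpl30 was at 7.49, 7.75, 7.78 and 7.84 in TNF-/- arrays, and at 8.10, 7.85, 7.85 and 7.99 in TNF+/+ arrays. The groups did not overlap, though TNF-/- array 4 and TNF+/+ arrays 2 and 3 were close, and Rpl30 was the only member with its highest value in TNF+/+ array 1. Its difference of -0.23 ± 0.09 (limma, adjusted p = 0.433) was -0.26 without TNF+/+ arrays 3 and 4.

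Rpl5 carries the 5S ribosomal RNA into the large subunit, and free Rpl5 binds the p53 regulator Mdm2. It was at 10.40, 10.44, 10.30 and 10.26 in TNF-/- arrays, and at 10.42, 10.56, 10.47 and 10.61 in TNF+/+ arrays. Only TNF+/+ array 1 lay within the TNF-/- range, and the difference was -0.16 ± 0.07 (limma, adjusted p = 0.442). Its 4 other probe sets gave -0.24 to -0.15 (limma, adjusted p between 0.399 and 0.477), and the groups did not overlap in the lowest of them.

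Rpl34, Rpl23, Rpl7a, Rpl6 and Rpl7 differed by -0.15 to -0.11, with limma adjusted p between 0.512 and 0.612. Rpl37a differed by -0.11 ± 0.07. Rpl12, a protein of the stalk base, had a dim signal of 4.71, 4.42, 4.35 and 4.33 in TNF-/- arrays, and of 4.77, 4.82, 4.20 and 4.89 in TNF+/+ arrays. TNF+/+ array 3 was the lowest and the other TNF+/+ arrays the highest of the 8, and the difference was -0.22 ± 0.16 (limma, adjusted p = 0.639). Rpl23 is another binder of Mdm2. It was at 9.94, 9.95, 10.08 and 10.01 in TNF-/- arrays, and at 9.95, 10.17, 10.22 and 10.17 in TNF+/+ arrays, so that all but TNF+/+ array 1 lay above the TNF-/- arrays. Rpl4, which lines the tunnel through which the new protein leaves, differed by 0.015 ± 0.073, and Rpl10, which joins late in assembly, by 0.023 ± 0.070.

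The higher side was led by Rpl23a, which sits at the mouth of that tunnel. It was at 9.77, 9.65, 9.57 and 9.57 in TNF-/- arrays, and at 9.25, 9.70, 9.71 and 9.41 in TNF+/+ arrays. TNF+/+ arrays 1 and 4 lay below and arrays 2 and 3 within the TNF-/- range, and the difference was 0.13 ± 0.11 (limma, adjusted p = 0.701). With TNF-/- array 1 left out it was 0.084, and it was 0.037 without TNF+/+ array 1.

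In the small subunit, Rps13 had the lowest p. It was at 7.40, 7.31, 7.27 and 7.40 in TNF-/- arrays, and at 7.41, 7.46, 7.54 and 7.56 in TNF+/+ arrays. The groups did not overlap by a narrow margin between TNF-/- arrays 1 and 4 and TNF+/+ array 1, and the difference was -0.15 ± 0.06 (limma, adjusted p = 0.432). In the 2 other probe sets of Rps13 the groups overlapped, with differences of -0.14 and -0.025 (limma, adjusted p = 0.490 and 0.891).

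Rps4x, encoded on the X chromosome, was at 8.41, 8.41, 8.28 and 8.25 in TNF-/- arrays, and at 8.40, 8.52, 8.45 and 8.56 in TNF+/+ arrays. TNF+/+ array 1 lay within the TNF-/- range and the other TNF+/+ arrays above it, with a difference of -0.14 ± 0.06 (limma, adjusted p = 0.479). Rps7, also a binder of Mdm2, differed by -0.13 ± 0.07 with overlapping groups. Rps15a was at 8.13, 8.34, 8.45 and 8.42 in TNF-/- arrays, and at 8.38, 8.91, 8.49 and 8.38 in TNF+/+ arrays. TNF+/+ array 2 was far above the rest, and the difference of -0.21 ± 0.13 (limma, adjusted p = 0.591) was -0.082 without it.

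Rps3, which lies where messenger RNA enters the ribosome and in human cells also joins NF-kB complexes, was at 9.10, 9.20, 9.27 and 9.13 in TNF-/- arrays, and at 9.28, 9.29, 9.09 and 9.79 in TNF+/+ arrays. TNF+/+ array 4 was far the highest and TNF+/+ array 3 the lowest of all 8. The difference was -0.19 ± 0.14 (limma, adjusted p = 0.633), and it was -0.049 without TNF+/+ array 4.

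Rpsa, also known as the laminin receptor, was at 9.28, 9.27, 9.36 and 9.03 in TNF-/- arrays, and at 9.11, 9.24, 9.33 and 9.69 in TNF+/+ arrays. Apart from TNF+/+ array 4 the values were intermixed, and the difference of -0.10 ± 0.13 was 0.011 without that array. Rps19, the member most often mutated in Diamond-Blackfan anaemia, differed by -0.024 ± 0.18, with signals of 4.54 to 5.25 in TNF-/- arrays and 4.66 to 5.30 in TNF+/+ arrays.

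Rps6 is the substrate of the S6 kinases downstream of mTORC1. Its brightest probe set was at 11.00, 11.16, 11.00 and 10.90 in TNF-/- arrays, and at 11.14, 11.04, 10.99 and 11.24 in TNF+/+ arrays, with overlapping groups and a difference of -0.089 ± 0.078 (limma, adjusted p = 0.701). Its 7 other probe sets gave differences of -0.25 to -0.18, each at an unadjusted p under 0.05 and with limma adjusted p between 0.379 and 0.448. The value of Rps6 thus depended on the probe set chosen.

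**Figure D4:**
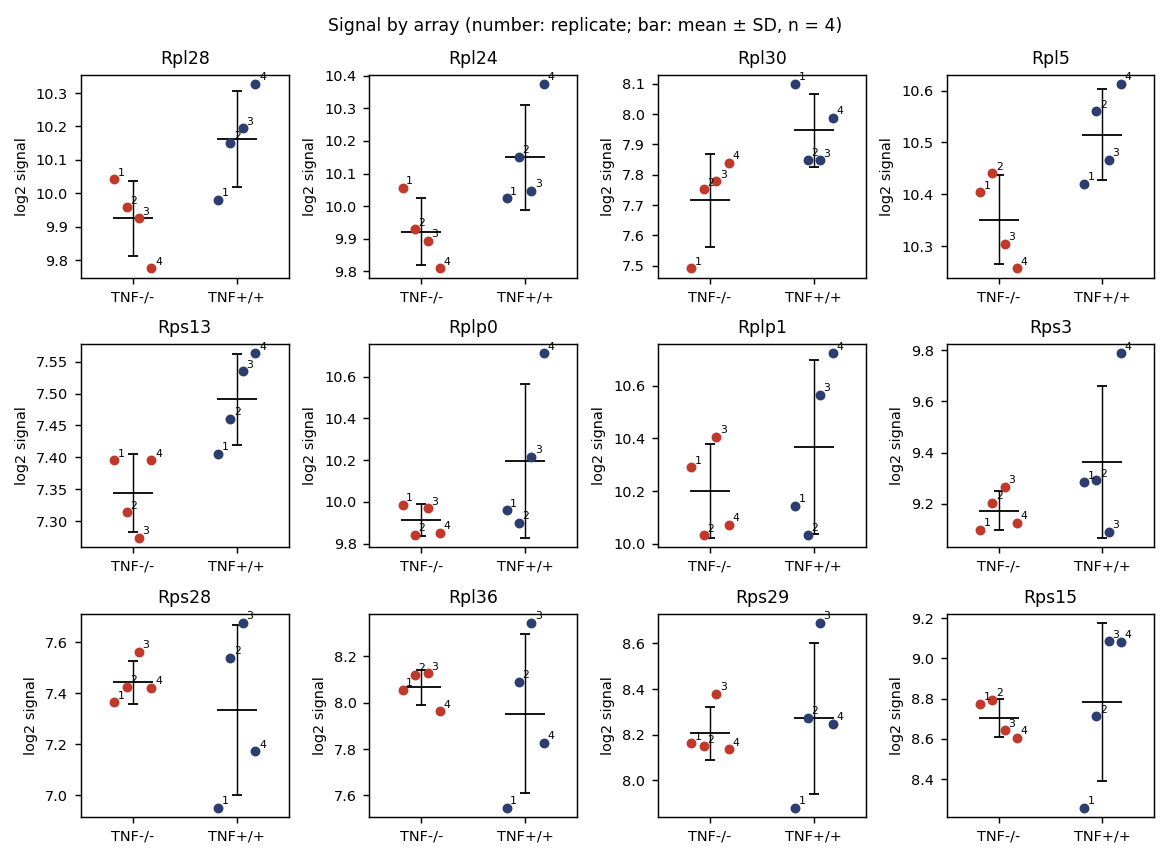
Log2 signal of 12 members in each array, TNF-/- arrays left of TNF+/+ arrays in each panel and each panel with its own y range, with replicate numbers beside the points and bars for the mean ± SD (n = 4 per label). Rps13 and Rpl30 show no overlap, Rplp0 and Rps3 have a high TNF+/+ array 4, and Rps28, Rpl36, Rps29 and Rps15 have their lowest value in TNF+/+ array 1.

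A group of 9 members had its lowest value in TNF+/+ array 1 and its highest in TNF+/+ array 3: Rpl19, Rpl34, Rpl36, Rpl41, Rps12, Rps15, Rps21, Rps28 and Rps29. They were picked out after their values were seen, and several of them, such as Rpl41, Rps21, Rps28 and Rps29, encode very short proteins. Rps15, whose tail reaches the decoding site, was at 8.77, 8.79, 8.64 and 8.61 in TNF-/- arrays, and at 8.26, 8.71, 9.08 and 9.08 in TNF+/+ arrays. The TNF+/+ arrays thus surrounded the TNF-/- arrays on both sides, with an SD of 0.39 over TNF+/+ and 0.09 over TNF-/- arrays.

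Rps28 was at 7.36, 7.42, 7.56 and 7.42 in TNF-/- arrays, and at 6.95, 7.54, 7.68 and 7.17 in TNF+/+ arrays. Rps29 was at 8.16, 8.15, 8.38 and 8.14 in TNF-/- arrays, and at 7.88, 8.27, 8.69 and 8.25 in TNF+/+ arrays. Both had an SD of 0.33 over TNF+/+ arrays, and their differences of 0.11 ± 0.15 and -0.066 ± 0.15 were within their errors. Signs turned with single arrays left out: Rps28 was at -0.019 without TNF+/+ array 1, and Rps29 at 0.073 without TNF+/+ array 3. The cerebellum marker list was high in the same TNF+/+ array 1, and its part in these low values was not tested.

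The paralogs, which replace or resemble a standard member in some tissues, were mostly dim. Rpl3l, the form of heart and skeletal muscle, was between 3.41 and 3.52 in TNF-/- arrays and between 3.45 and 3.48 in TNF+/+ arrays. Rpl10l, the testis form that stands in for X-linked Rpl10 in male germ cells, was between 3.48 and 3.90 in TNF-/- arrays and between 3.56 and 3.67 in TNF+/+ arrays, and Rpl39l, also a testis form, between 3.68 and 3.83 in TNF-/- arrays and between 3.58 and 3.88 in TNF+/+ arrays. All 3 lay below the 25th percentile of signals in every array, and their differences were 0.016, 0.047 and 0.013.

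Rps27l, which p53 induces in human cells, was brighter than that percentile and was at 5.83, 5.69, 5.37 and 5.89 in TNF-/- arrays, and at 5.82, 5.79, 5.95 and 6.06 in TNF+/+ arrays. TNF-/- array 3 was the lowest, the groups overlapped, and the difference was -0.21 ± 0.12 (limma, adjusted p = 0.563). Of the 58 members 52 were brighter than the median probe set.

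Ribosomal protein genes have many processed pseudogenes in the mouse genome, so a probe set may hold signal from near-identical copies, and single members are uncertain to that extent. Of the 58 genes 38 had several probe sets, up to 14 for Rps12. In 24 of these 38 all probe sets were lower in the arrays labelled TNF-/-, in 3 all were higher (13 of Rpl23a, 6 of Rps25 and 7 of Rps28), and in 11 they differed in sign. Of all 213 probe sets of the family 137 were lower (64.3%), against 54.8% of all probe sets. Probe sets of a gene can share probes and are not replicates: of the 213, 201 had distinct values, and the 3 of Rpl41 were identical.

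With limma 0 of the 213 probe sets passed the adjusted threshold, against 0.0816% of all probe sets. The groups did not overlap in 8 of the 213 (3.76%), all on the lower side, against 6.63% of all probe sets in either direction. At an unadjusted p under 0.05, 22 of the 213 were lower (10.3%), against 4.9% of all probe sets, and 0 were higher, against 5.92%. These 22 belonged to 9 genes, with 7 of them from Rps6 and 5 from Rpl28, whose differences lay between -0.26 and -0.24. The probe sets differed most for Rps2, at -0.34 to -0.022, for Rps9, at -0.41 and -0.15, and for Rps14, at -0.12 and 0.053. Mutations of the yeast counterparts of Rps2 and Rps9 alter the accuracy of decoding. For Rps9 the probe set at -0.41 had a limma adjusted p of 0.437 and the brighter one, used above, 0.582.

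**Figure D5:**
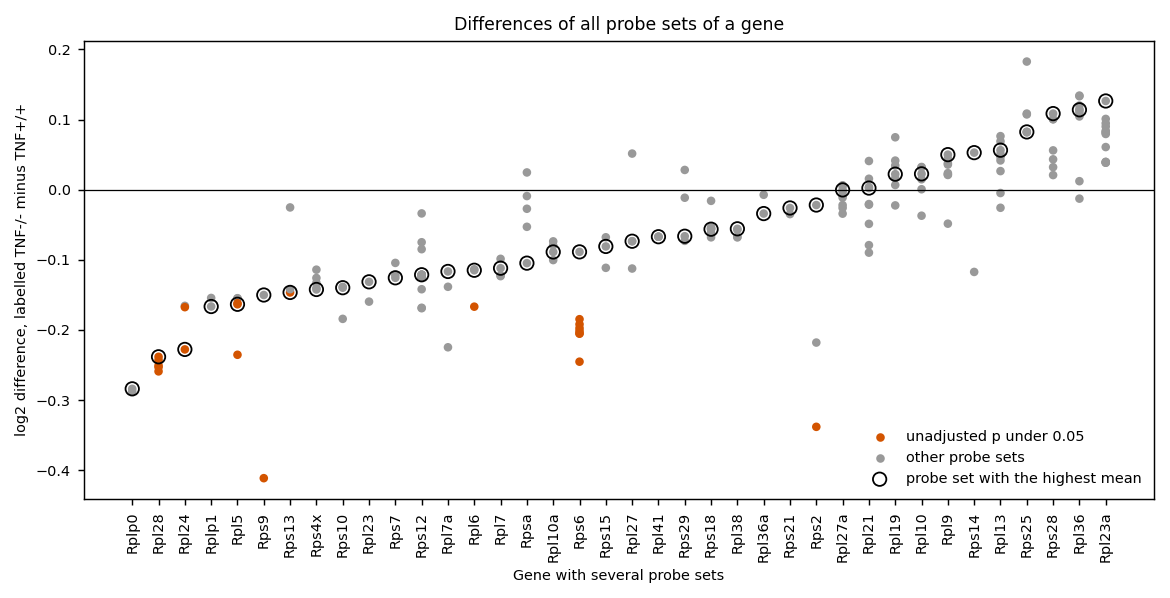
Log2 difference (TNF-/- minus TNF+/+ label, y axis) of every probe set of the 38 genes with several probe sets (x axis), where each point is a probe set, orange marks an unadjusted p under 0.05 and the open circle marks the brightest, which represents the gene. Rps6, Rps2 and Rps9 have points well below the circle, and all points of Rpl23a, Rps25 and Rps28 lie above 0.

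The rule did not reach the whole ribosome. Of 77 listed standard ribosomal proteins, 46 of the large and 31 of the small subunit, 53 were members and 24 were not. The list leaves out Fau, and its Rps3a, among the 24, appears below under the symbol Rps3a1. Of these 24, 16 stand only in probe sets with several symbols (Rpl3, Rpl11, Rpl13a, Rps24 and Rps27 among them). The 5 further members were Rpl3l, Rpl10l, Rpl39l, Rps27l and Rpl32l. Of 11 ribosomal protein genes with symbols outside the pattern, 3 were measured alone. Fau, the source of the small subunit protein eS30, differed by -0.15 ± 0.16, Rpl7l1, a relative of Rpl7, by 0.014 ± 0.061, and Rps3a1, a small subunit protein, by 0.32 ± 0.34. Rps3a1 was at 6.70, 8.14, 6.72 and 6.40 in TNF-/- arrays, and at 6.41, 6.70, 6.67 and 6.87 in TNF+/+ arrays, so that TNF-/- array 2 alone set its mean.

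Of 18 genes known from Diamond-Blackfan anaemia, 8 were among the members. Of these 6 were lower, against 52.2% of all genes, and the median of the 8 was -0.070. At an unadjusted limma p under 0.05, 1 (Rpl5) was lower, against 4.28% of all genes, and 0 passed at an adjusted one. Tnf lies on mouse chromosome 17, and so do 7 members: Rpl10a, Rpl36, Rpl3l, Rps10, Rps18, Rps2 and Rps28. By their brightest probe sets the differences ran from -0.14 to 0.11, 4 were lower, against 52.2% of all genes, and the smallest limma adjusted p was 0.664. The 2 other probe sets of Rps2 lay at -0.34 and -0.22. Members with a run of at least 8 C or T in the 30-base window had a median difference of -0.12 (14 of 19 lower). For those without one it was -0.077 (21 of 28 lower). Such a run could lie anywhere in the window, also wholly before the annotated start, so the TOP motif itself was not scored.

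Translation factors whose RNA carries the TOP motif were looked at beside the family. Of 17 listed genes of this class 15 were measured, 0 passed the adjusted limma threshold, and 4 were lower and 0 higher at an unadjusted p under 0.05 (4.28% and 7.37% of all genes), with a median of -0.017. Tpt1, the abundant growth-related protein TCTP, was at 10.77, 10.71, 10.48 and 10.54 in TNF-/- arrays, and at 10.75, 10.96, 11.01 and 10.83 in TNF+/+ arrays. Only TNF+/+ array 1 lay within the TNF-/- range, and the difference was -0.26 ± 0.09 (limma, adjusted p = 0.361). The elongation factor gene Eef2 differed by -0.16 ± 0.07, and the initiation factor 3 subunits Eif3f and Eif3l by -0.22 and -0.17.

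The 32 genes of ribosome assembly and ribosomal RNA synthesis, all measured, had a median difference of 0.054, against -0.0061 over all genes and 0.033 over the brightest 1994. None passed the adjusted threshold by limma, and 4 were higher and 1 lower at an unadjusted p under 0.05 (7.37% and 4.28% of all genes). Rrp1b, a nucleolar protein, was at 6.06, 6.02, 6.34 and 6.24 in TNF-/- arrays, and at 5.98, 6.00, 5.78 and 5.61 in TNF+/+ arrays, with no overlap and a difference of 0.32 ± 0.11 (limma, adjusted p = 0.366). Taf1b, of the RNA polymerase I machinery, differed by 0.20, Nop58, of the box C/D particles, by 0.15, and nucleolin (Ncl) by -0.15. Of 28 initiation factor genes 23 were measured, with a median of 0.046, 2 higher (Eif5 and Eif4e) and 1 lower (Eif3d) at an unadjusted p under 0.05 (7.37% and 4.28% of all genes) and 0 past the adjusted threshold.

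Of 18 genes of the mTOR pathway, which acts on TOP RNAs, 17 were measured and 0 passed the adjusted limma threshold, with 3 higher and 2 lower at an unadjusted p under 0.05 (7.37% and 4.28% of all genes) and a median of 0.049. Deptor, an inhibitor bound to mTOR, was at 6.40, 6.59, 6.66 and 6.56 in TNF-/- arrays, and at 6.24, 6.10, 6.24 and 6.09 in TNF+/+ arrays. The groups did not overlap, and the difference of 0.38 ± 0.07 had an adjusted p of 0.151 by limma. Eif4ebp1, the translation repressor that mTORC1 switches off, was at 4.50, 4.58, 4.44 and 4.51 in TNF-/- arrays, and at 4.67, 4.84, 4.67 and 4.99 in TNF+/+ arrays, again with no overlap, and differed by -0.29 ± 0.08 (limma, adjusted p = 0.307). Of the complex that restrains mTORC1, Tsc1 differed by 0.23 and Tsc2 by -0.18.

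Marker lists of cell types were also looked at. Of 8 astrocyte genes 3 were lower and 5 higher in the arrays labelled TNF-/-. At an unadjusted limma p under 0.05, 1 astrocyte gene was lower and 2 were higher (4.28% and 7.37% of all genes). Of 5 measured endothelium genes 3 were lower and 2 higher, 0 of them at that p. Of the 8 listed oligodendrocyte genes 7 were measured, and all 7 were lower in the arrays labelled TNF-/-, against 52.2% of all genes. Of these, 4 had an unadjusted limma p under 0.05, against 4.28% of all genes, and 0 passed the adjusted threshold. The list averaged 9.12 to 9.23 in TNF-/- arrays and 9.26 to 9.56 in TNF+/+ arrays, with the highest 2 values in the same TNF+/+ arrays 3 and 4 that held the highest signal of 38 ribosomal protein genes. Without these 2 arrays the oligodendrocyte list differed by -0.17, against -0.29 with them. The mean of the ribosomal protein genes differed by 0.0055, against -0.068 with them. Only TNF+/+ arrays 1 and 2 then remain in that label. Array 1 had the high cerebellum list and the lowest mean of the ribosomal protein genes (8.32), so these values cannot separate the 2 lists. Of 7 measured microglia genes 5 were lower, against 52.2% of all genes, 2 of them at an unadjusted limma p under 0.05, against 4.28%. The microglia list averaged 6.13 to 6.32 in TNF-/- arrays and 6.23 to 6.43 in TNF+/+ arrays. All 6 choroid plexus genes were higher, 1 of them at an unadjusted limma p under 0.05, against 7.37% of all genes. That list averaged 6.74 to 6.91 in TNF-/- arrays and 6.54 to 6.82 in TNF+/+ arrays. No gene of these lists passed the adjusted limma threshold, and their part in the signal of the ribosomal protein genes was not tested.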

How the data were processed

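Brain RNA of 8 mice was measured on 8 arrays, 4 per label, and the number of arrays limits the precision. The authors deposited log2 signals, used here as deposited. GCOS, GCRMA and Partek are named in the submitters' processing notes, which do not say for which step, and the log2 scale was inferred from the values. For the genome build, the sources used here give nothing. Sample titles gave the groups and replicate numbers. There were 0 unused columns of values. Gene symbols came from the annotation of the platform, and chromosomes and promoters came from RefSeq (GRCm38.p6). Rps4l, a pseudogene in RefSeq, was left out.

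The comparison of the labels used R 4.3.3 and limma 3.58.1 (genotype term, eBayes, two-sided test, p adjusted by Benjamini-Hochberg for all 35556 probe sets, call at an adjusted p under 0.05). SEs are limma's moderated ones. SAM was rebuilt with all 70 assignments of the arrays and a delta of 1.40, and both tests were tested on simulated data. Figures used matplotlib 3.10.9 in Python 3.11.15.

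The members and lists were chosen with earlier results of these data known. Named are members past the threshold, the 12 with the smallest p per subunit, those without overlap, members chosen by role, paralogs, the 3 with the most different probe sets, the ribosomal protein genes outside the symbol pattern, and the 3 genes of smallest p in each translation list. Members picked for their array pattern or for the higher side, and the further genes of those lists at an unadjusted p under 0.05, were added after their values were seen. Alternatives were other scalings, filters, variance models and member rules, a replicate block, and leaving out arrays.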

Additional observations from a re-analysis of the deposited data

Results flagged for a closer look

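In 3 genes a single array stood far from the others of its label. Eif3d, a subunit of initiation factor 3, had 7.33 in TNF-/- array 2, the lowest value of that label, while the other 3 TNF-/- arrays lay at 7.66. Eif3f, another subunit of the same factor, had 9.69 in TNF+/+ array 4, the highest of that label, against 9.44 to 9.47 in the other 3 TNF+/+ arrays. Rps29 had 8.38 in TNF-/- array 3, the highest of that label, against 8.14 to 8.16 in the other 3 TNF-/- arrays. Over 122 groups of 4 arrays examined in this way 3 stood out, and chance marks about 1 in 20 groups, here about 6.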

How the results depend on the processing

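The counts of members past the adjusted threshold stayed at 0 in all alternatives run. The count of all probe sets called, 29, was 63 over probe sets with 1 gene symbol, 53 with SAM and 0 without TNF+/+ arrays 3 and 4. With the replicate number as a block it was 0, and Tnf differed by 1.39 (limma, adjusted p = 0.129). In that fit 0 members had an unadjusted p under 0.05, against 4.89% of all probe sets lower and 6.43% higher. Same-numbered arrays deviated together weakly, with correlations of 0.07, 0.11, 0.10 and 0.07, yet 6 of 8 arrays correlated best with their own number. The main fit did not take the numbers as pairs, and whether they mark pairs or batches is not stated. The 5 lower members at an unadjusted p under 0.05 were 3 of the 52 left without dim probe sets, against 3.67% of the probe sets kept. Without TNF+/+ arrays 3 and 4 that count was 1, against 5.17% of all probe sets. There 26 members were lower, against 51.2%, the large subunit median was 0.035 and Tnf was at 1.21 (limma, adjusted p = 0.216). Members on the lower side were 43 (74.1%) with quantile normalization, against 50.8% of all probe sets. With median centring they were 46 (79.3%), against 60.6%, where the main fit had 41 (70.7%), against 54.8%.

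Leaving out each array in turn gave 1 to 20 calls, 0 to 10 lower and 0 to 1 higher members at an unadjusted p under 0.05, 33 to 49 members on the lower side, medians of -0.14 to -0.0084 (large) and -0.18 to -0.043 (small), and Tnf at 1.29 to 1.52 (limma, adjusted p 0.0321 to 0.114). Signs turned, in no case past a threshold, in Rpl7l1 (-0.027 with quantile normalization, -0.0049 with median centring), Rpl39l (-0.0056), Rpl3l (-0.0023) and Rpl4 (-0.0040) with median centring, and Fau (0.086), Rplp1 (0.11), Rps19 (0.19), Rps15 (0.22), Rps29 (0.13), Rps2 (0.027) and Rpsa (0.062) without TNF+/+ arrays 3 and 4. With single arrays left out the ranges were -0.012 to 0.065 for Rpl10, -0.036 to 0.11 for Rpl10l, -0.040 to 0.060 for Rpl39l, -0.013 to 0.052 for Rpl7l1, -0.016 to 0.068 for Rpl4, -0.26 to 0.019 for Rps15, -0.019 to 0.22 for Rps28, -0.20 to 0.073 for Rps29, -0.062 to 0.050 for Rps2, -0.059 to 0.52 for Rps3a1, -0.14 to 0.10 for Rps19, -0.24 to 0.0096 for Fau and -0.18 to 0.011 for Rpsa. The cause was not tested. With Rps4l counted as a member, chosen after seeing the data, 42 of 59 were lower, against 52.2% of all genes.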
